A study of Mus musculus with 3 samples.

Results

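Plasmacytoid dendritic cells (pDCs) were picked out of a Drop-seq survey of adult mouse liver as every barcode with at least 200 genes, 1 or more UMIs (unique molecular identifiers, each counting 1 captured transcript) of at least 2 of the 5 genes Siglech, Ccr9, Klk1, Cox6a2 and Spib, and no UMI of the B cell genes Cd79a and Ms4a1. The gate held 217 of 25263 cells, 94 of 10386 in the control library, 111 of 9253 at 1 day post-injury (p.i.) and 12 of 5624 at 7 days p.i. All animals were adult C57BL/6 mice. Control livers had sham surgery and were taken after 1 day. Injured livers had irreversible electroporation (IRE), in the labels 8 pulses of 50 ms at 75 V with 1 s between pulses through electrodes on the upper and lower face of a lobe (the study's methods state a lower voltage), and were taken at 1 or 7 days. Each condition was 1 library of 3 pooled livers, from 4 mm punches that were digested with enzymes and strained without a sort. The control punch came from an equivalent uninjured area.

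pDCs are the dendritic cells specialised in sensing viral nucleic acids. Toll-like receptors in their endosomes signal through Irf7 to secrete type I interferon, and the E protein Tcf4 sets up and keeps their identity, with Irf8, Spib, Bcl11a and Runx2 among its partners and targets. They carry lymphoid features from their development, and in the resting state present antigen less than conventional dendritic cells (cDC1 and cDC2), the cells that prime T cells. The liver holds a resident pool of them.

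With 1 library per condition no difference between conditions could be tested across animals. All intervals below are 95% intervals (exact binomial for shares, exact Poisson for levels and conditional binomial for ratios) and cover counting error only. Levels are given as CPM, the UMIs of a gene per 1000000 UMIs summed over the gate, so that fewer cells with a transcript and fewer transcripts per cell enter alike. The libraries held 15704, 18161 and 12466 barcodes with 4580021 to 10032574 UMIs. Median UMIs per gate cell were 512, 514 and 424 in the control, 1-day and 7-day libraries, against 596, 509 and 457 in all other cells. Libraries shared 202 to 738 barcodes, among them the barcodes of 3 gate cells of the 1-day library, and no barcode was in the gate of 2 libraries.

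RNA of other classes differed between the libraries inside and outside the gate. At 1 day, 107 of 111 gate cells had UMIs of at least 2 of 10 hepatocyte markers such as Alb and Apoa1, the share being 96.4% in the gate and 93.9% in other cells, against 7.45% and 7.10% in the control library. Summed hepatocyte markers stood at 27022 CPM in the gate at 1 day and 27958 CPM in other cells. Much of the gate sum came from its deepest cell, of 8780 UMIs. Without that cell Alb had 309 of its 809 gate UMIs, Apoa2 122 of 294, Ttr 88 of 244 and Apoa1 76 of 229. The sum was not recomputed without it, so the closeness of the 2 levels rests partly on that cell. At least 2 sinusoidal endothelial markers were seen in 1 control and 37 1-day gate cells. The summed endothelial list at 1 day was 6.11 times its control level in the gate and 2.91 times in other cells. For Kupffer cell markers these ratios were 2.29 and 1.34, so both lists rose more in the gate than in other cells. At 7 days, 10 of 12 gate cells had at least 2 of 8 neutrophil markers such as S100a8, and the list stood at 35390 CPM in the gate and 42172 CPM in other cells. The part of this shared RNA in the results below was not tested beyond the ratios of other cells printed beside them. Beyond hepatocyte, sinusoidal endothelial, Kupffer cell and neutrophil markers, 2 or more markers of any 1 other class were found in 4 control, 4 1-day and 2 7-day gate cells, or 4.26%, 3.6% and 16.7%, against 24.1%, 7.12% and 34.9% of other cells. No gate cell had 2 markers of cDC1, cDC2, B or plasma cells, and the basophil and mast cell markers were at 0 in every gate cell. For cDC2 markers only 0.564%, 0.153% and 0.178% of other cells had 2. The summed cDC2 markers were 2.81 (1.49 to 4.83), 3.25 (1.54 to 6.08) and 8.75 (1.79 to 26.0) times their level in other cells, from 13, 10 and 3 gate UMIs. Summed cDC1 markers were 1.05, 1.30 and 0 times it, and the B and plasma cell sums were below other cells in each library. The rule itself barred Cd79a and Ms4a1, which are among the 6 B cell markers measured. The lack of gate cells with 2 B cell markers was therefore partly fixed by the rule.

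Members were chosen by the UMIs of these 5 genes, whose values are given as a description only. Siglech, a sialic acid-binding lectin of the pDC surface, had 169 UMIs in 86 of 94 gate cells in the control, 191 in 97 of 111 at 1 day and 17 in 9 of 12 at 7 days, a level of 3030, 2530 and 3085 CPM. It stood at 17.7, 45.8 and 8.84 CPM in the other cells of the same libraries. Cox6a2, a cytochrome c oxidase subunit otherwise typical of muscle, had 57, 91 and 11 UMIs in 43, 61 and 7 cells. Klk1, a kallikrein protease, had 55, 82 and 6 UMIs, and Ccr9, a receptor for the gut chemokine Ccl25, had 58, 48 and 3. Spib, an Ets family transcription factor, had 19, 21 and 2 UMIs in 17, 17 and 2 cells. Siglech with Cox6a2 was the most frequent pair, in 97 cells, and Klk1 with Spib the least frequent, in 9.

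Most gate cells met the rule narrowly. Exactly 2 of the 5 genes were seen in 58 control, 74 1-day and 11 7-day cells, 3 genes in 27, 29 and 1, 4 genes in 9, 8 and 0, and no cell had all 5. Just outside the rule, 197, 391 and 47 cells had exactly 1 of the genes. Dropping the condition on B cell genes would have added 2 cells, both at 1 day.

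Genes that the rule did not use gave the gate cells a pDC profile in each library. Beside the 5 rule genes, 961 genes had at least 20 UMIs in the gate over the 3 libraries. Of these, 93 (9.68%) stood at least 2-fold above all other cells in the control library, 90 (9.37%) at 1 day and 53 (5.52%) in both. Among 25 pDC surface and secreted genes, 13 reached that minimum and 11 of them were at least 2-fold above other cells in both libraries. Of 11 pDC transcription factors 8 reached it and 5 did so, and of 17 nucleic acid-sensing genes 7 reached it and none did so. The minimum was set on the gate itself, so a gene missing from other cells entered only where the gate held it. Summed over all 25 genes, the surface and secreted list was 3.57-fold above other cells in the control library, 5.29-fold at 1 day and 4.98-fold at 7 days, and the transcription list, over all 11 genes, was 3.20-fold, 2.26-fold and 3.44-fold above them.

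Among surface and secreted genes, Ly6d, a small anchored protein of lymphoid-primed cells, had 54 UMIs in 34 control gate cells, 91 in 54 cells at 1 day and 14 in 6 cells at 7 days. This was 24.5-fold (18.0 to 32.7), 19.8-fold (15.6 to 25) and 242-fold (120 to 467) above the other cells. Bst2, the antiviral tetherin used as a pDC antigen, had 67, 106 and 15 UMIs and stood 3.6-fold, 3.57-fold and 7.19-fold above them. The pattern held in all 3 libraries, with the widest intervals at 7 days. Rpgrip1, best known from photoreceptor cilia, had 46, 27 and 2 UMIs in 32, 24 and 1 cells. Its level was 45.6-fold (32.0 to 63.9) above other cells in the control and 17.3-fold (10.9 to 26.3) at 1 day. Cd7, a lymphoid surface protein, was 5.11-fold and 5.66-fold above other cells. Cd300c, an immunoglobulin-like receptor, had only 8, 11 and 0 UMIs yet stood 76.1-fold (27.9 to 191) and 48.8-fold (20.8 to 109) above other cells in the control and at 1 day. Plac8 and Pltp were the members over the minimum that did not reach 2-fold in both, with 1.68-fold and 1.22-fold in the control.

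Among transcription factors, Tcf4 had 71 UMIs in 47 control gate cells, 46 in 35 cells at 1 day and 8 in 7 cells at 7 days, or 7.62-fold, 3.28-fold and 20.3-fold above other cells. Irf8, which dendritic lineages share, had 69, 72 and 8 UMIs and was 5.77-fold, 5.14-fold and 9.26-fold above them. Runx2, a Runt factor linked to pDC exit from bone marrow, had 23, 9 and 2 UMIs. It was 33.5-fold and 21.8-fold above other cells in the first 2 libraries. Bcl11a, a zinc finger factor of lymphoid and pDC progenitors, had 23, 10 and 3 UMIs and was 20.01-fold and 9.18-fold above them. Zeb2, Ets1 and Irf7 were the members over the minimum that did not reach 2-fold, with 1.01-fold, 1.42-fold and 0.822-fold in the control library.

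**Figure D1:**
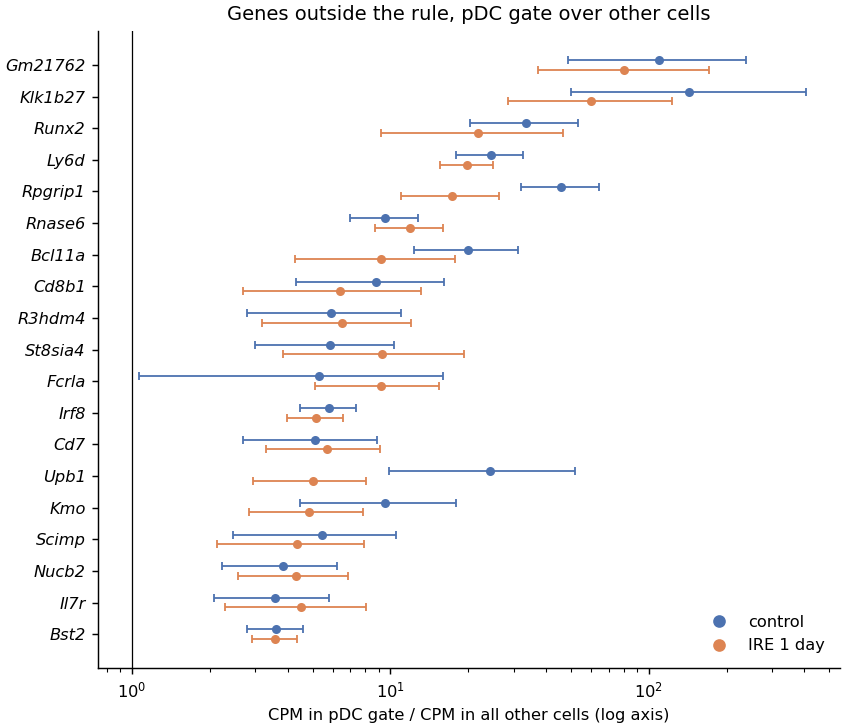
Level in the pDC gate divided by the level in all other cells of the same library for the genes with the largest ratios (log axis; points, 1 library each; bars, 95% counting intervals; rule genes left out). Runx2, Ly6d and Rpgrip1 sit above 15-fold in the control and 1-day libraries, while Bst2 sits near 3.6-fold in both.

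Genes ranked by the lower of the control and 1-day ratios included several outside the lists. Rnase6, a secreted antimicrobial ribonuclease, had 48, 53 and 9 UMIs and was 9.54-fold and 11.9-fold above other cells. Cd8b1, the beta chain of the T cell co-receptor CD8, had 11, 8 and 1 UMIs, an 8.82-fold and a 6.39-fold difference. Kmo, an enzyme of tryptophan breakdown, was 9.51-fold above other cells in the control and 4.86-fold at 1 day. Upb1, an enzyme of pyrimidine breakdown and a member of the surface and secreted list, was 24.3-fold and 5.01-fold above them. Klk1b27, at 9, 15 and 2 UMIs, is a paralogue of the rule gene Klk1, and reads may have been split between them, so its ratios of 143 and 59.9 are not independent of the rule. Gm21762, a predicted gene, had ratios of 109 and 79.9 from 13 and 16 UMIs. Lymphoid genes were detectable in the gate. Dntt, the terminal transferase of immature lymphocytes, had 8, 4 and 1 gate UMIs, where 3 UMIs stand for 53.8, 39.7 and 544 CPM of the gate. In other cells Dntt stood at 1.01, 4.14 and 0.327 CPM. Il7r, the interleukin-7 receptor, was 3.58-fold and 4.50-fold above other cells.

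Cell by cell, 7 pDC genes outside the rule (Ly6d, Runx2, Rpgrip1, Bcl11a, Irf8, Tcf4 and Bst2), chosen after their values were seen, were looked for in each barcode. At least 2 of them had a UMI in 67 of 94 control gate cells (71.3%, 61.0 to 80.1), 75 of 111 at 1 day (67.6%, 58.0 to 76.1) and 9 of 12 at 7 days (75.0%, 42.8 to 94.5). In other cells the share was 8.93%, 7.71% and 3.08%, and in T cells, which should lack most of them, it was 5.59%, 4.08% and 2.86% at a median depth of 708, 556 and 485 UMIs. With 300 UMIs drawn from every cell and the 1, 6 and 1 shallower gate cells left out, the gate shares were 53.8%, 39.1% and 72.7% against 2.37%, 2.31% and 1.12% of other cells. None of the 7 genes was seen in 6, 11 and 1 gate cells.

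The lists also differed by the number of rule genes detected. The surface, secreted and transcription lists together stood at 3885 CPM in control cells with none of the 5 rule genes, 5963 CPM with 1, 13092 CPM with 2, 14105 CPM with 3 and 13524 CPM with 4. At 1 day the steps were 2836, 4111, 10326, 13365 and 14704 CPM. Control cells with Siglech as their single rule gene stood at 7638 CPM, between the groups with none and with 2.

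**Figure D2:**
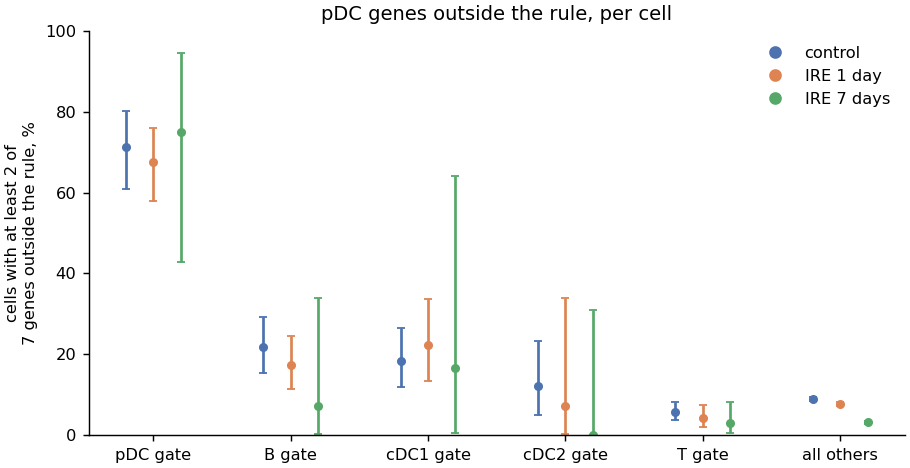
Share of cells with at least 2 of the 7 pDC genes outside the rule (y axis, %), by gate and library (points; bars, exact binomial 95% intervals). The pDC gate sits at 67.6% to 75.0% in the 3 libraries, while the B, cDC1, cDC2 and T gates sit at 0% to 22.2% and all other cells at 3.08% to 8.93%.

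The deepest control and 1-day gate cells held many UMIs of genes outside the pDC lists. The deepest control cell had 1869 UMIs with 29 of Lyz2, 18 of Gpnmb, 20 of Fabp5 and 23 of Ctsl and none of the 7 pDC genes. The deepest 1-day cell had 8780 UMIs, 11.6% of the UMIs of that gate, and all 10 hepatocyte markers, where the second deepest had 2005. The deepest 7-day cell, with 720 UMIs, held 13.1% of that gate.

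pDCs took a smaller share of cells at 7 days than in the other libraries. The gate took 0.905% of control cells (0.732 to 1.11), 1.20% at 1 day (0.988 to 1.44) and 0.213% at 7 days (0.110 to 0.372). The share at 7 days was 0.236 times the control share (0.118 to 0.432) and 0.178 times the 1-day share (0.0892 to 0.323). The 1-day share was 1.33 times the control share (0.998 to 1.76), an interval that reached 1. Thinned to 300 UMIs per cell, the shares were 0.580%, 0.659% and 0.138%. The direction at 1 day depended on the barcodes admitted. Over every deposited barcode the ratio was 0.821 (0.642 to 1.05), with at least 300 genes it was 2.04 (1.37 to 3.07), and among cells with at most 20% mitochondrial UMIs it was 2.53 (1.5 to 4.35). Mitochondrial UMIs made up 28.9%, 20.9% and 4.65% of the gate in the 3 libraries and 20.4%, 21.8% and 4.10% of other cells. The 7-day ratio was 0.499 (0.228 to 1.03) under that mitochondrial limit and 0.0513 with at least 3 rule genes. Shares depend on all other cells of the punch, so fewer pDCs and more of other cells cannot be told apart.

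Against the other dendritic cells the balance differed. cDC1 and cDC2 gates, each at least 2 of 5 markers (Xcr1, Clec9a, Itgae, Gcsam and Snx22, and Cd209a, Mgl2, Clec10a, Tnip3 and Ccl17), held 120 and 58 control cells, 72 and 14 at 1 day, and 6 and 10 at 7 days. pDCs were thus 94 of 271 dendritic cells in the control (34.7%, 29.0 to 40.7), 111 of 197 at 1 day (56.3%, 49.1 to 63.4) and 12 of 28 at 7 days (42.9%, 24.5 to 62.8). The control and 1-day intervals did not overlap, and the 7-day interval covered both other values. These intervals count cells within 1 library per condition, so a difference between conditions was not tested. The share was not recomputed under other settings. Depth also differed, with control medians of 950 and 744.5 UMIs in the cDC1 and cDC2 gates against 512 in the pDC gate.

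**Figure D3:**
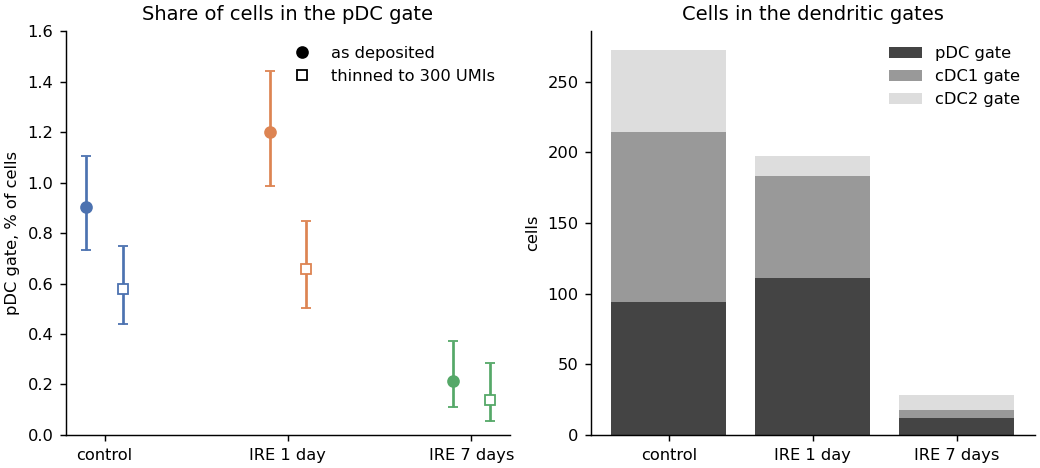
Left, share of cells in the pDC gate in each library (y axis, %; filled circles, counts as deposited; open squares, each cell thinned to 300 UMIs; bars, exact binomial 95% intervals). Right, number of cells in the pDC, cDC1 and cDC2 gates, where 1 control cell in both cDC gates is drawn in each; the pDC share of dendritic cells is 34.7%, 56.3% and 42.9%.

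Within the control library, gate cells had less of the class II antigen presentation machinery than conventional dendritic cells. The 10 MHC class II genes summed to 6795 CPM in the pDC gate, 26107 CPM in the cDC1 gate and 30744 CPM in the cDC2 gate, ratios of 0.260 (0.234 to 0.289) and 0.221 (0.197 to 0.247). The invariant chain gene Cd74 stood at 1416, 4162 and 5160 CPM, and H2-Ab1, which codes for a class II beta chain, at 2277, 9774 and 10771 CPM. At 1 day the list ratios were 0.172 and 0.187. The 14 co-stimulation and maturation genes were at 179 CPM in the pDC gate against 488 and 1040 CPM, although 1 of them, Ccl17, is also a cDC2 marker. MHC class I genes, which nearly all cells use, had ratios of 1.05 (0.947 to 1.16) and 0.931 (0.825 to 1.05).

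pDC regulators separated the gates in the other direction. Tcf4 was at 1273 CPM in the pDC gate, 87.5 CPM in the cDC1 gate and 157 CPM in the cDC2 gate, a 14.6-fold (7.84 to 29.5) and an 8.11-fold (3.90 to 19.5) difference. Irf8 did not separate pDC from cDC1 cells, at 1237 and 1166 CPM (1.06, 0.788 to 1.42), and was 7.01-fold (3.48 to 16.0) above cDC2 cells. Ly6d had 54 UMIs in the pDC gate, 1 in the cDC1 gate and 0 in the cDC2 gate. Ctsl, an endosomal protease that processes Toll-like receptors, was 3.91-fold and 10.7-fold above the cDC1 and cDC2 gates, but 23 of its 70 gate UMIs were in the deepest cell. Without that cell it was 2.72-fold (1.76 to 4.198) and 7.41-fold (3.16 to 21.2) above them. Cell division genes were lower in pDCs than in cDC1 cells, at 1147 against 3928 CPM (0.292, 0.222 to 0.379).

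B cells were compared because they share lymphoid genes with pDCs. In the control library Ly6d was at 968 CPM in the pDC gate and 541 CPM in the B gate (1.79, 1.23 to 2.60), while Tcf4 was 4.21-fold (2.80 to 6.42), Irf8 5.55-fold (3.53 to 8.95) and Runx2 25.9-fold (6.4 to 227) above B cells. The lymphoid list, which includes the B gate marker Ebf1, was at 0.408 (0.329 to 0.501) of its B cell level but 5.21-fold and 7.05-fold above the cDC1 and cDC2 gates.

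**Figure D4:**
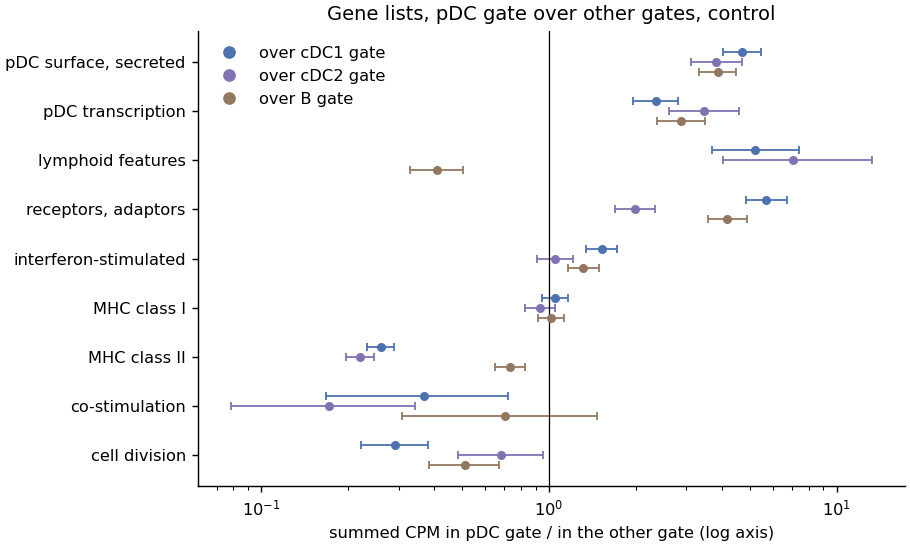
Summed level of gene lists in the pDC gate divided by that in the cDC1, cDC2 and B gates of the control library (log axis; bars, 95% counting intervals). pDC lists lie above 1 and MHC class II at 0.221 to 0.732; the list of receptors and adaptors includes the rule gene Siglech.

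Nucleic acid-sensing genes as a list were not above other cells in the control library. The 17 genes summed to 0.854 of the level in other cells (0.776 to 0.937), and to 1.09 (1.00 to 1.19) at 1 day and 0.890 (0.658 to 1.18) at 7 days. Single members differed. Ctss, a lysosomal protease, stood at 0.461 of its level in other cells in the control and 0.844 at 1 day. Tlr7, the endosomal receptor for single-stranded RNA, had 6, 6 and 1 gate UMIs and stood 3.32-fold (1.21 to 7.32) and 3.6-fold (1.30 to 8.06) above other cells in the control and at 1 day. Slc15a4, an endolysosomal transporter needed for this signalling, had 5, 7 and 0 UMIs, a 2.97-fold (0.956 to 7.03) and a 5.13-fold (2.02 to 10.9) difference. Unc93b1, the chaperone that carries the receptors to endosomes, had 18, 27 and 2 UMIs, at 1.32-fold and 1.69-fold, and the broadly used chaperone Hsp90b1 had 142, 127 and 17 UMIs, at 1.26-fold and 1.18-fold. Tlr9, named after its values were seen, had 0 and 1 gate UMIs in the control and at 1 day. Irf7 had 6, 18 and 1 UMIs. Its 1-day level was 2.22 times the control level (0.843 to 6.82), an interval that included 1, and the ratio in other cells was 1.46.

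Transcripts of the type I interferons Ifnb1 and Ifna2 were found in 1 single cell, and it was in the pDC gate. Of 21 interferon genes listed, the files held 5. Over all 46331 barcodes of the 3 libraries, Ifnb1 had 2 UMIs and Ifna2 had 2 UMIs, and all 4 were in the deepest gate cell of the 7-day library. That cell had 720 UMIs and 436 genes, with 1 UMI each of the rule genes Ccr9 and Spib and none of Siglech, and 2, 2 and 1 UMIs of Ly6d, Tcf4 and Irf8. It also held 20 UMIs of Ccl4 and 8 of Ccl3, chemokines for monocytes and lymphocytes, and 26, 24 and 20 UMIs of the neutrophil genes S100a8, S100a9 and Retnlg. The interferon genes and Ccl3 are named after their values were seen. Ccl4 was frequent outside the gate at 7 days as well, with a UMI in 23.2% of other cells. No interferon transcript was seen in the 94 control and 111 1-day gate cells, which at a floor of 3 counts allows up to 3.19% and 2.70% of cells with a UMI, or 53.8 and 39.7 CPM of each gene. Ifnk and Ifnz, other type I interferons, had 1 UMI each over all libraries, both outside the gate. Ifng, the type II interferon of T and NK cells, had 121, 42 and 41 UMIs in the libraries and none in the gate.

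The comparison of 1 day with control asked how pDCs differ soon after injury. Of 911 genes with at least 20 UMIs in both gates together, 138 (15.1%) were at least 2-fold higher and 90 (9.88%) at least 2-fold lower at 1 day, and for 115 and 55 of them the interval left out 1. Of the 138 higher genes 85 were also at least 2-fold higher in other cells, and of the 90 lower genes 21 were also lower there. The median ratio over all genes was 0.985, and leaving mitochondrial, haemoglobin and hepatocyte marker UMIs out of the totals moved it to 0.917.

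Several transcription factors that define pDCs had lower levels at 1 day. Of the 8 measured with at least 20 UMIs, 3 were at least 2-fold lower and 1, Irf7, at least 2-fold higher. Over all 911 genes tested, 9.88% were lower and 15.1% higher. The 8 factors had a median ratio of 0.686, and the summed list had a ratio of 0.668 (0.555 to 0.803) against 0.943 in other cells. Tcf4 went from 1273 CPM in the control to 609 CPM at 1 day, a ratio of 0.479 (0.323 to 0.703), while in other cells its ratio was 1.11. Runx2 was at 412 and 119 CPM (0.289, 0.118 to 0.649), with a ratio of 0.444 in other cells. Bcl11a was at 412 and 132 CPM (0.321, 0.137 to 0.702), with 0.700 in other cells. Irf8 had 69 and 72 UMIs, or 1237 and 954 CPM (0.771, 0.546 to 1.09), an interval that included 1. Mef2c and Zeb2 had ratios of 0.739 and 0.633, both with intervals that included 1. Ets1 and Irf7 lay in the other direction, at 1.55 (0.699 to 3.69) and 2.22 (0.843 to 6.82), also with intervals that included 1. Their ratios in other cells were 1.64 and 1.46.

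The list ratio was 0.621 to 0.777 under the other settings tried, and that of Tcf4 0.438 to 0.626. Runx2 rested on few counts and had a ratio of 0.677 among cells with at least 3 rule genes. Thinned to 300 UMIs per cell, Tcf4 had a UMI in 37.6% of control and 17.1% of 1-day gate cells, and Irf8 in 34.4% and 20%. In T cells thinned likewise, Tcf4 had a UMI in 1.08% and 5.02%.

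The surface and secreted genes showed no common direction. Of 12 tested, 2 were at least 2-fold lower and 1 at least 2-fold higher, with a median ratio of 1.01, and the summed list had a ratio of 0.940 (0.836 to 1.06). Rpgrip1 was at 825 and 358 CPM (0.434, 0.259 to 0.712), with 1.15 in other cells, and Lair1, an inhibitory collagen receptor, at 520 and 238 CPM (0.459, 0.240 to 0.854), with 0.650 in other cells. Bst2 was at 1201 and 1404 CPM (1.17, 0.853 to 1.61) and Ly6d at 968 and 1205 CPM (1.25, 0.880 to 1.78). Ly6c2, which classical monocytes also carry, was at 1237 and 1245 CPM in the gate (1.01, 0.730 to 1.39) while its ratio in other cells was 0.246. Pltp, a phospholipid transfer protein, was the member that was 2-fold higher, with 14 and 45 UMIs (2.37, 1.28 to 4.68).

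**Figure D5:**
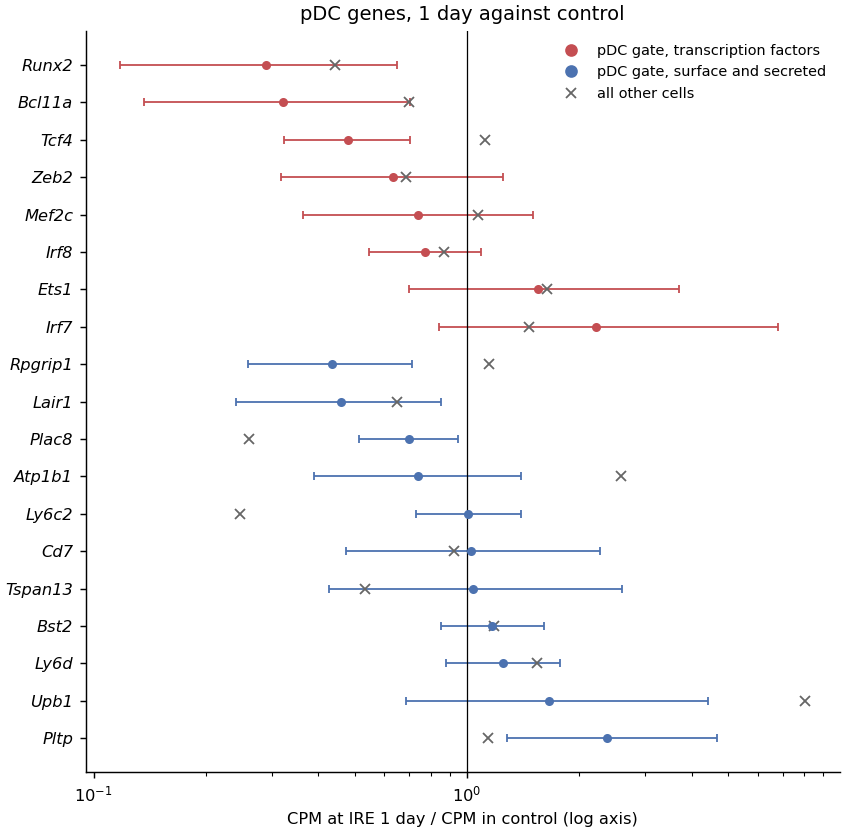
Level at 1 day divided by the control level for pDC transcription factors and surface or secreted genes with at least 20 UMIs (log axis; circles, pDC gate with 95% counting intervals; crosses, all other cells). Tcf4 sits at 0.479 in the gate and 1.11 in other cells, while Bst2 and Ly6d lie at 1.17 and 1.25.

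Genes with the most extreme ratios at 1 day mostly followed the library. After mitochondrial, haemoglobin and listed hepatocyte genes were set apart, the 5 highest were Ahsg, Gc, Serpina3k, Apoc3 and Serpina1b, secreted products of hepatocytes. Each had 1 UMI in the control gate and 58 to 116 at 1 day, or 26 to 50 without the deepest cell, and was 15.4-fold to 26.5-fold higher in other cells too. Of the 5 lowest, Gpnmb, a lysosomal glycoprotein of macrophages, had 21 UMIs in 4 control cells, 18 of them in the deepest cell, and 0 at 1 day. Fabp5, a fatty acid-binding protein, had 23 and 4 UMIs, 20 of the 23 in that same cell. S100a9 had a ratio of 0.180 in the gate and 0.160 in other cells. Of its 86 control UMIs, 42 were in 1 cell and 12 in another, and of its 21 1-day UMIs 18 were in 1 cell. Arpp19 and Coro2a were further from their ratios in other cells. Arpp19, a phosphatase inhibitor, had 17 UMIs in 16 control cells and 3 in 3 cells at 1 day (0.130, 0.0245 to 0.451), and its ratio in other cells was 0.797. Coro2a, an actin-binding coronin, had 18 UMIs in 15 control cells and 4 in 4 cells (0.164, 0.0404 to 0.498), against 0.514.

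The summed interferon-stimulated genes were 1.21 times the control level at 1 day, with members in both directions. The 38 genes summed to 7315 and 8835 CPM, a ratio of 1.21 (1.07 to 1.37), against 1.04 in other cells, and 1.81 among cells with at least 3 rule genes. Ifitm3, which blocks viral entry, had 25 and 76 UMIs (2.25, 1.41 to 3.68), with 1.18 in other cells, and Ly6e was at 1757 and 2384 CPM (1.36, 1.06 to 1.75), with 1.39 there. Of 7 tested members 1 was at least 2-fold higher and 1 at least 2-fold lower, and the median ratio was 1.17. The lower was Trim30a, named after its values were seen, at 520 and 199 CPM (0.382, 0.190 to 0.736), with 0.830 in other cells. MHC class I genes had a summed ratio of 1.19 (1.07 to 1.33), against 1.06 in other cells, with H2-D1 at 1.45 (1.12 to 1.88). MHC class II genes had a summed ratio of 0.721 (0.623 to 0.835), against 0.518 in other cells. It was 1.00 (0.783 to 1.28) among cells with at least 3 rule genes, so its direction rested on cells with 2. Cell division genes were at 1147 and 570 CPM (0.496, 0.329 to 0.742), with 0.448 in other cells, and secretory pathway genes had a ratio of 0.874 (0.764 to 1.00), which was 1.09 (0.877 to 1.37) with at least 3 rule genes. Nucleic acid-sensing genes had a ratio of 0.877 (0.771 to 0.997), against 0.686 in other cells, and 1.02 (0.893 to 1.17) without the deepest cell of each gate.

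At 7 days the gate held 5510 UMIs in 12 cells, and few comparisons could be made. Of 370 genes tested, 85 (23%) were at least 2-fold higher and 32 (8.65%) at least 2-fold lower than in the control, with an interval that left out 1 for 40 and 9. This split depended on scaling. With mitochondrial, haemoglobin and hepatocyte marker UMIs out of the totals, 36 of 362 were higher and 48 lower, 42.9% of the calls being higher in place of 72.6%, and the median ratio moved from 1.27 to 0.943. The 5 highest were Ccl4, Retnlg, S100a9, Srgn and S100a8, which were 9.89-fold to 17.3-fold higher in other cells as well. Of 27 Ccl4 UMIs in the gate, 20 were in the cell with interferon transcripts. The lowest included Lyz2, the lysozyme of phagocytes, with 128 control and 2 7-day UMIs (0.158, 0.019 to 0.583) against 1.27 in other cells. Of the 128 control UMIs of Lyz2, 29 were in the deepest cell. Apoe was also among the lowest, with 228 and 2 UMIs (0.0888, 0.0107 to 0.325) against 0.410. Rps2, Mbnl1 and Gm26924 had 1 UMI each at 7 days.

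Of the 12 cells, 9 had at least 2 of the 7 pDC genes outside the rule and 1 had none. The surface and secreted list summed to 9144 CPM in the control and 15971 CPM at 7 days, a ratio of 1.75 (1.38 to 2.19), or 1.30 (1.03 to 1.64) with the other scaling, and 1.25 in other cells. The transcription list had a ratio of 1.22 (0.806 to 1.79). Tcf4 was at 1452 CPM from 8 UMIs, and Ly6d at 2541 CPM from 14. Interferon-stimulated genes had a ratio of 2.01 (1.56 to 2.56), or 1.5 with the other scaling, and 1.90 in other cells. MHC class I genes had 1.87 (1.49 to 2.32) against 1.25, and MHC class II genes 0.988 (0.685 to 1.39) against 0.455.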

How the data were processed

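Drop-seq was made from 3 libraries of pooled adult mouse liver punches, 1 per condition. The authors deposited UMI counts per gene and barcode, made with DigitalExpression of the Drop-seq tools per the file headers (barcode edit distance 1, read quality 10, sense strand, coding and UTR reads). The submitters' processing notes list STAR 2.5.2a and the human build hg19, although the symbols are mouse, so no coordinates were used. The files held barcodes under 200 genes, which served as a measure of free RNA.

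Counts were summed over gate cells and scaled to CPM with Python 3.11.15, numpy 2.4.6, pandas 2.3.3 and scipy 1.17.1. A gene was called at a ratio of at least 2, or at most 0.5, with at least 20 UMIs. Genes at 0 were set to a floor of 3 UMIs per gate. No test across samples was possible, and no p-value is given. The calls were run on simulated Poisson counts with planted changes. These counts held no spread between cells and no difference between libraries in RNA of other classes. How the calls behave under either was therefore not tested. Comparison gates needed 2 markers of their class. Doublets were kept, and no caller was run. Thinning drew 300 UMIs per cell. The members, gene lists and alternatives were chosen with earlier results of these data known. Genes named are members of the pDC and nucleic acid-sensing lists with at least 10 gate UMIs, the 4 members with most gate UMIs of every other list, the 5 highest and 5 lowest ratios of each contrast, and the 20 largest ratios over other cells, and others are said to be chosen after their values were seen. A gene that met this rule is not reported here.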

Additional observations from a re-analysis of the deposited data

How the results depend on the processing

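No paired analysis was possible because each condition was 1 library, and no replicate could be left out. Shallow cells limit every share, and 12 cells limit the 7-day values. Of the values that answer a comparison, 98 stayed close to their value under the alternatives, 45 moved and 1 reversed, and of the others 165 stayed close, 13 moved and 2 reversed. The 165 include the share of higher genes among the calls, which was counted as close without a comparison. At 7 days that share went from most calls higher to most calls lower with the other scaling. The cause of the moves was not tested except where fewer cells or genes entered. Leaving out shared barcodes, the deepest cells or cells with 2 markers of classes other than hepatocyte, sinusoidal endothelial, Kupffer cell and neutrophil was added after seeing the data.

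With at least 3 rule genes the gate took 0.347%, 0.3999% and 0.0178% of control, 1-day and 7-day cells, a 7-day to control ratio of 0.0513. With at least 1 it took 2.80%, 5.43% and 1.05%, a 1-day to control ratio of 1.94. With at least 300 genes the control share was 0.677% and the 1-day ratio 2.04, and over every deposited barcode the 1-day share was 0.727% and its ratio 0.821. Among cells with at most 20% mitochondrial UMIs the control share was 0.434%, with ratios of 2.53 at 1 day and 0.499 at 7 days. Thinning to 300 UMIs gave 0.580% and 0.659% in the control and at 1 day. Leaving out gate cells with 2 markers of any other class left 63, 4 and 1 cells, since hepatocyte or neutrophil RNA was in most cells of the injured libraries, or 0.607%, 0.0432% and 0.0178%, with ratios of 0.0713 and 0.0293. Gene sums were not recomputed where under 5 gate cells were left, as there and at 7 days with 3 rule genes.

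At 1 day, 403 genes were higher and 243 lower with a minimum of 10 UMIs, 32 and 13 with 50 UMIs, and 32 and 15 with at least 3 rule genes, and 55 lower genes had an interval that left out 1. At 7 days, 335 genes were higher with 10 UMIs, 18 were higher and 13 lower with 50 UMIs, 40 higher and 9 lower genes had such an interval, and 36 were higher without mitochondrial, haemoglobin and hepatocyte marker UMIs. That scaling also gave 7-day to control ratios of 1.30 for surface and secreted genes and 1.5 for interferon-stimulated genes, and put the surface list at 3.99-fold over other cells in the control. With at least 3 rule genes the 1-day to control ratio was 1.10 for surface genes and 1.81 for interferon-stimulated genes, MHC class II genes turned from 0.721 to 1.00 and secretory pathway genes from 0.874 to 1.09. The MHC class II ratio was 0.569 with at least 300 genes. Without the deepest cells nucleic acid-sensing genes turned from 0.877 to 1.02 and the surface list was 5.85-fold over other cells at 1 day. That fold was 6.36 with at least 3 rule genes and 4.74 with at least 300 genes, where the control value was 3.09.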

Other observations

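Barcodes below the minimum of 200 genes also carried the pDC rule genes. At least 2 of the 5 were seen in 45 of 5318 such barcodes of the control library (0.846%, 0.618 to 1.13), 21 of 8908 at 1 day (0.236%, 0.146 to 0.360) and 4 of 6842 at 7 days (0.0585%, 0.0159 to 0.150). In these barcodes Ly6d, Runx2, Rpgrip1, Bcl11a, Irf8, Tcf4 and Bst2 together had 90, 33 and 15 UMIs, out of 12824, 5004 and 808. They stood at 7018, 6595 and 18564 CPM, against 670, 776 and 362 CPM in all barcodes under 200 genes. The 7-day level thus rests on few counts. Neither injured library was above the control library in this share.

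Of the gene lists not described above, chemokine receptors and adhesion genes had a summed 1-day to control ratio of 0.739 (0.578 to 0.945) in the gate and 0.641 in other cells, and immediate early genes 0.777 (0.598 to 1.01) and 0.746. Genes of survival and cytokine receptors had 1.02 (0.738 to 1.41) and 0.873, genes of transitional dendritic cells 1.29 (1.05 to 1.597) and 0.892, and cytochrome c oxidase subunits, which include the rule gene Cox6a2, 1.04 (0.894 to 1.21) and 0.931. Receptors and adaptors with the rule gene Siglech among them had 0.951 (0.842 to 1.07) and 0.771, and lymphoid genes 0.944 (0.729 to 1.23) and 0.803.

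Transcripts of Tyrobp, a signalling adaptor of myeloid receptors, were at 2062, 2225 and 3085 CPM in the gate of the control, 1-day and 7-day libraries, or 1.42 (1.17 to 1.70), 2.39 (2.04 to 2.79) and 0.977 (0.569 to 1.56) times the level in other cells. Ifnar2, a chain of the type I interferon receptor, had 18, 21 and 2 gate UMIs and was 2.01-fold (1.19 to 3.20) above other cells in the control. Transcripts of Lifr and Cd81 had 2 UMIs each in the control gate, 23 and 22 at 1 day, and 0 at 7 days. Their 1-day ratios were 8.50 (2.10 to 74.3) and 8.13 (2.00 to 71.3), against 3.25 and 1.99 in other cells. The sinusoidal endothelial markers likewise had a ratio of 6.11 in the gate against 2.91 in other cells. Whether RNA of other classes entered the Lifr and Cd81 counts was not tested.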
